A study of Mus musculus with 6 samples.

Results

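Cgas encodes cyclic GMP-AMP synthase, the enzyme that senses DNA in the cytosol. It was examined here together with 9 genes of cytosolic nucleic acid sensing: Ifih1, Dhx58, Zbp1, Mavs, Tbk1, Irf3, Irf7, Trex1 and Samhd1. Every probe that the platform annotation assigns to one of these symbols was taken, which gave 22 probes for 10 genes among 45281 probes for 19057 annotated genes. Cgas was picked because of its difference between the genotypes in these same arrays, and the others were picked for their roles with results of the arrays known. The differences of these genes are therefore given as descriptions, with standard errors and without p-values.

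The study asked which thymic transcripts change when miR-181d, a small regulatory RNA, is overexpressed. Whole thymus RNA came from 3 miR-181d transgenic mice of the Tg-38 line and 3 wild type (WT) mice, all C57BL/6 and 5 to 8 weeks of age, with 1 single-color bead array for each mouse. The transgene was a fragment of the primary miR-181d transcript in a VA-hCD2 cassette, which directs expression to T-lineage cells, and Tg-38 is 1 transgenic line, so that effects of the place of integration cannot be told apart from those of the microRNA. The arrays carry messenger RNA probes, and the transgene itself was not measured on them.

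Cytosolic sensing is an alarm system for nucleic acid in the wrong place. Cgas makes a cyclic dinucleotide on binding DNA, which activates Sting1, while the RNA helicase Ifih1, modulated by Dhx58, signals through Mavs on mitochondria. Both routes use the kinase Tbk1 and the transcription factors Irf3 and Irf7 to induce type I interferon. Trex1 removes cytosolic DNA and Samhd1 lowers the pool of deoxynucleotides. Several of these genes are themselves interferon-inducible, and in the thymus both thymocytes and stromal or myeloid cells can express them.

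The mature miR-181 5p strands are shown because they share their seed, the bases by which a microRNA finds its targets. Sequences are from RefSeq on build GRCm38.p6, and capitals mark the seed, bases 2 to 8, which was the same 7 letters in all 4. The transgenic member, miR-181d-5p, lies at chr8:84178759-84178781 on the minus strand.
miR-181d-5p: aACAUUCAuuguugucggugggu
miR-181a-5p: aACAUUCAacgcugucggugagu
miR-181b-5p: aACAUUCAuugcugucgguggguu
miR-181c-5p: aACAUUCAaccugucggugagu

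Detection was taken from the scanner's detection p, which ranks a probe's signal against the negative control beads. A probe was tested when its detection p was under 0.05 on at least 3 of the 6 arrays, which left 18352 probes. Of the 22 probes, 16 passed, for 9 of the 10 genes. Another 4 were detected on no array: the only probe of Ifih1, probe 1 of Dhx58, and probes 1 and 2 of Zbp1. The last 2 were detected too rarely to be tested. Trex1 probe 1 was detected on 1 Tg-38 and 1 WT array, and Samhd1 probe 3 on 1 Tg-38 array. Each array detected 17972 to 18464 probes in Tg-38 and 17674 to 18526 in WT. The number of arrays limits the precision. With 3 against 3, an exact two-sided permutation test of a single value cannot go below p = 0.1. The numbers of the mice do not say whether same-numbered mice are related, and nothing tells how far the spread between these mice is technical. The main axis of variation among arrays, 39.4% of the variance, separated Tg-38 from WT, and WT replicate 2 stood apart on the second axis, 21.7%.

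From the list of double-positive thymocyte markers, Cd3e, Cd4, Cd8b1 and Rag1 were detected on all 6 arrays, and Cd8a on none. Thymocytes carry CD8 by the paper's flow cytometry, so a probe detected on no array is not read as absence of its transcript. Single-positive thymocytes also carry CD4 or CD8, so the list is not specific to double-positive cells. The arrays read whole thymus, so on them fewer cells of a type and less RNA per cell cannot be told apart. By flow cytometry, the paper reports a lower percentage and number of double-positive thymocytes in this line.

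Cgas probe 1 was the most different of the 16 probes. Its normalized signal was 10.06, 9.97 and 9.94 on the log2 scale in the Tg-38 thymuses, against 8.92, 8.84 and 8.93 in the WT thymuses. The lowest Tg-38 array stood above the highest WT array. The means were 9.99 ± 0.06 in Tg-38 and 8.90 ± 0.05 in WT (SD, n = 3 each), a log2 fold change of 1.09 with a standard error of 0.10, or 2.13-fold. In the scanner signal before normalization, probe 1 read 1124.2, 1019.4 and 964.2 in Tg-38, against 717.7, 588.7 and 576.0 in WT. This separation needed no normalization, as the WT arrays were brighter as a whole, with medians over tested probes of 283.3, 266.45 and 251.8 in Tg-38, against 335.7, 291.15 and 277.1 in WT.

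Cgas probe 2 was near the detection limit. It was detected on 2 Tg-38 arrays and 1 WT array, and its normalized log2 signal was 5.58, 4.96 and 5.47 in Tg-38, against 5.11, 5.18 and 5.08 in WT. The groups overlapped, because Tg-38 replicate 2 was the lowest of all 6 arrays. The log2 fold change was 0.21 with a standard error of 0.16. Both probes are annotated to Cgas, and they disagreed in size, with the dimmer one carrying the wider Tg-38 spread. The paper's list of up-regulated genes gives probe 1 under a name other than Cgas. Its link to Cgas rests on the annotation used here, and probe sequences were not examined.

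**Figure D1:**
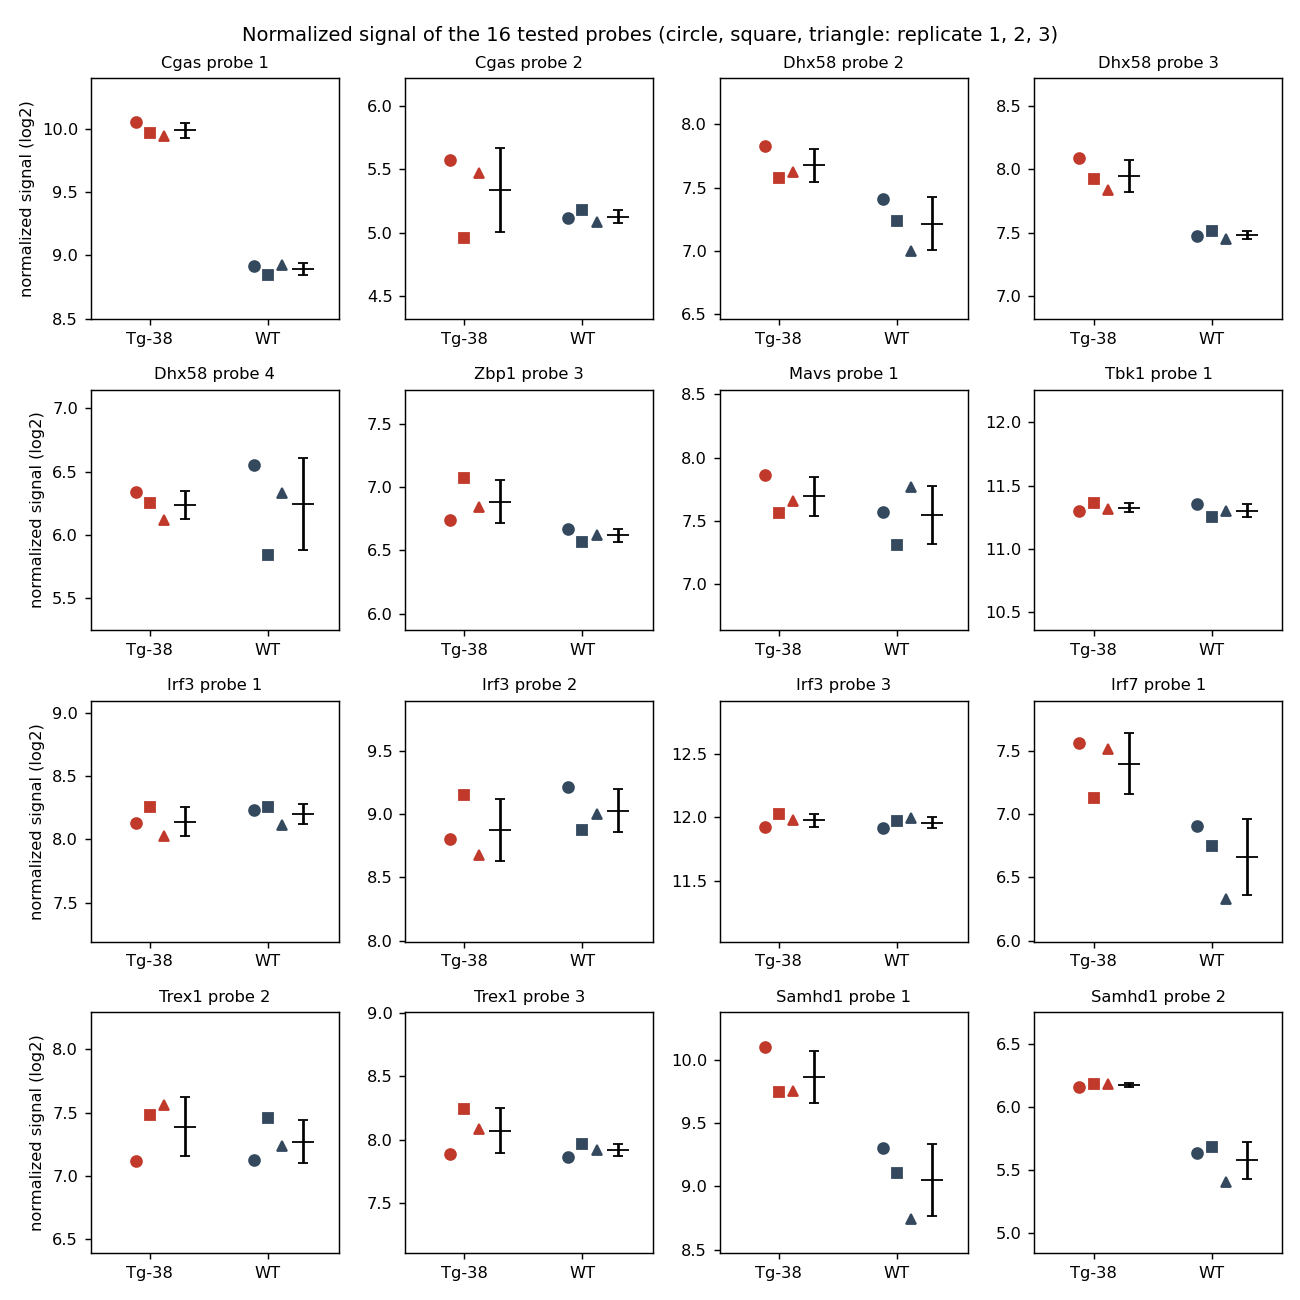
Normalized log2 signal (y axis) of the 16 tested probes in Tg-38 (left of each panel, red) and WT (right, dark blue), one point per array with circle, square and triangle for replicates 1, 2 and 3, and black bars for mean and SD. All panels span the same log2 range at different levels. Cgas probe 1 has the widest distance between the group means, with Tg-38 at 9.94 to 10.06 and WT at 8.84 to 8.93.

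Samhd1 encodes a dNTP triphosphohydrolase that restricts viral reverse transcription. Its probe 1, with the second largest difference of the 16, had normalized log2 signals of 10.11, 9.74 and 9.76 in Tg-38, against 9.30, 9.11 and 8.75 in WT. The groups did not overlap on this scale, with Tg-38 replicate 1 the highest and WT replicate 3 the lowest. The log2 fold change was 0.82 with a standard error of 0.17, or 1.76-fold. Its scanner signals were 1163.9, 886.6 and 853.6 in Tg-38, against 910.7, 686.9 and 520.4 in WT. Those overlapped, since WT replicate 1 exceeded 2 Tg-38 arrays.

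Samhd1 probe 2 was dimmer and more uniform. It read 6.16, 6.18 and 6.18 in Tg-38, against 5.64, 5.68 and 5.41 in WT, in normalized log2 signal. On this scale the Tg-38 arrays were nearly level and all above the WT arrays, and the log2 fold change was 0.59 with a standard error of 0.11. Its scanner signals overlapped, at 177.2, 169.5 and 163.0 in Tg-38, against 172.2, 159.9 and 146.1 in WT. It was near the detection limit in WT, where the lowest log2 signal of a detected probe was 5.10 to 5.21. Samhd1 probe 3 had a detection p under 0.05 on Tg-38 replicate 2 alone, so no fold is given for it.

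Irf7, the interferon-inducible transcription factor that amplifies type I interferon, lay between the Samhd1 probes in the size of its difference. Its single probe read 7.56, 7.13 and 7.51 in Tg-38, against 6.91, 6.74 and 6.33 in WT, in normalized log2 signal. The groups did not overlap, but both were spread widely, with an SD of 0.24 in Tg-38 and 0.30 in WT. The log2 fold change was 0.74 with a standard error of 0.18 and did not pass the adjusted threshold. Its scanner signals overlapped, at 293.8, 230.1 and 255.9 in Tg-38, against 261.9, 217.6 and 182.5 in WT.

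Among the RNA sensors, Dhx58, which encodes the helicase LGP2, had 3 tested probes that disagreed. Probe 3 read 8.09, 7.93 and 7.83 in Tg-38, against 7.48, 7.51 and 7.45 in WT, a log2 fold change of 0.47 with a standard error of 0.11. Probe 2 read 7.83, 7.58 and 7.62 in Tg-38, against 7.41, 7.24 and 6.998 in WT, a log2 fold change of 0.46 with a standard error of 0.14. Neither passed the adjusted threshold, although in both the groups were apart. Probe 4, annotated to a different sequence record than probes 2 and 3, read 6.34, 6.25 and 6.12 in Tg-38, against 6.55, 5.84 and 6.34 in WT. There the WT arrays lay on both sides of the Tg-38 arrays, and the log2 fold change was -0.01 with a standard error of 0.18.

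Ifih1, the sensor of long double-stranded RNA also called MDA5, was not well above background. Its scanner signal was 122.0, 114.6 and 107.5 in Tg-38, against 118.9, 120.2 and 113.7 in WT, and its detection p was 0.296 to 0.849 in Tg-38 and 0.553 to 0.894 in WT. No fold is given for Ifih1, since its only probe was above background in neither genotype. That does not show that the transcript was absent.

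Zbp1, a sensor of Z-form nucleic acid linked to necroptotic cell death, was measured by probe 3. It read 6.74, 7.07 and 6.84 in Tg-38, against 6.67, 6.57 and 6.62 in WT. All Tg-38 arrays were higher, the nearest by a small margin, and the log2 fold change was 0.26 with a standard error of 0.12, which did not pass the threshold.

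The signal relay showed smaller differences. Mavs, the mitochondrial adaptor of the RNA helicases, read 7.86, 7.56 and 7.66 in Tg-38, against 7.57, 7.31 and 7.77 in WT. Its groups overlapped, with a log2 fold change of 0.14 and a standard error of 0.14. Tbk1, the kinase downstream of both routes, read 11.30, 11.37 and 11.31 in Tg-38, against 11.35, 11.25 and 11.30 in WT. Those values interleaved, and the log2 fold change was 0.03 with a standard error of 0.10. For Irf3, the constitutive transcription factor that Tbk1 phosphorylates, 3 probes gave log2 fold changes of -0.06, -0.15 and 0.02, with standard errors of 0.11, 0.15 and 0.10. All 3 overlapped between genotypes. Before normalization, Tbk1 and probe 3 of Irf3 were lower in every Tg-38 array. Tbk1 read 2373 to 2519.8 in Tg-38, against 2551.7 to 3356.7 in WT, and Irf3 probe 3 read 3740.2 to 3924.6 in Tg-38, against 4053.5 to 4868.6 in WT.

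The DNA exonuclease Trex1 was measured by probes 2 and 3. Probe 2 read 7.12, 7.48 and 7.56 in Tg-38, against 7.12, 7.45 and 7.23 in WT. Probe 3 read 7.89, 8.24 and 8.09 in Tg-38, against 7.87, 7.97 and 7.92 in WT. In both, Tg-38 replicate 1 was level with the lowest WT array. The log2 fold changes were 0.12 and 0.15, with standard errors of 0.15 and 0.12.

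**Figure D2:**
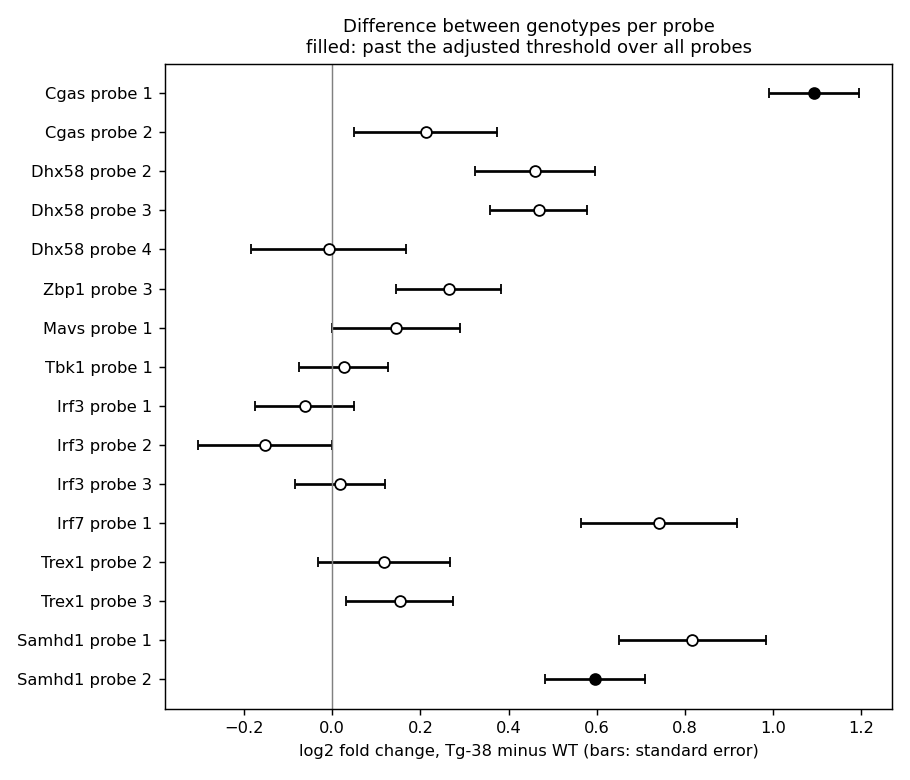
Log2 fold change, Tg-38 minus WT (x axis), for each of the 16 tested probes (y axis), with bars for the standard error from the fit over all probes. Filled points passed the adjusted threshold: Cgas probe 1 at 1.09 and Samhd1 probe 2 at 0.59, while Tbk1 and the Irf3 probes lie around 0.

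With limma's moderated test and Benjamini-Hochberg adjustment over all 18352 probes at 0.05, 2 of the 16 probes passed, Cgas probe 1 and Samhd1 probe 2, both higher in Tg-38. No probe was lower, and at an unadjusted p under 0.05 there were 6 higher and 0 lower. Over all tested probes, 1.10% passed, 0.801% higher and 0.300% lower in Tg-38, and the unadjusted shares were 8.55% higher and 8.48% lower. As the genes were chosen from this contrast and several probes share a gene, nothing is read from these counts. The same holds for the signs, median and group overlaps below. Of the 16 probes, 13 had a log2 fold change above 0, against 48.7% of all tested probes. The median was 0.18, against -0.01 over all tested probes.

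In 7 of the 16 probes every Tg-38 array stood above every WT array, and in none the reverse. Over all tested probes, the groups did not overlap in 22.6%, 11.4% toward higher and 11.2% toward lower. In the scanner signal only Cgas probe 1 did so toward higher (0.959% of all tested probes), and 2 toward lower (31.0%).

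**Figure D3:**
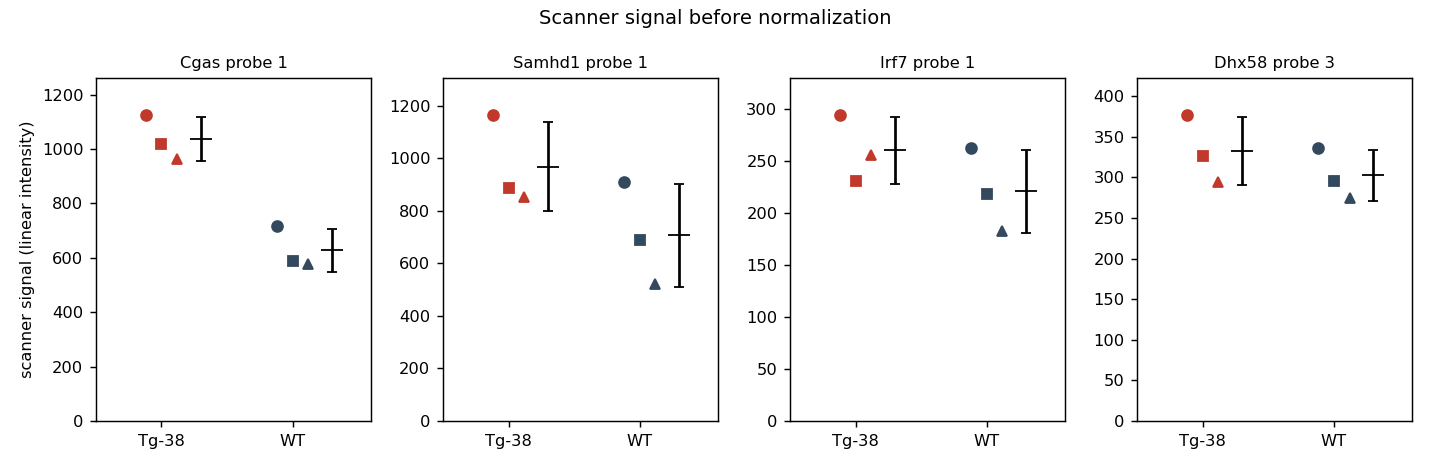
Scanner signal before normalization (linear intensity, y axis from 0) for 4 probes in Tg-38 (left, red) and WT (right, dark blue), one point per array with circle, square and triangle for replicates 1, 2 and 3, and black bars for mean and SD. For Cgas probe 1, Tg-38 lies at 964.2 to 1124.2 and WT at 576.0 to 717.7, while the groups overlap for Samhd1 probe 1, Irf7 and Dhx58 probe 3.

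How far these values depended on processing was followed over 17 alternatives, of which 16 adjust for all probes and 1, the methods' t-test, was also read at an unadjusted p. The log2 fold change of Cgas probe 1 ran from 0.92 to 1.11 over the 17, and it passed in 15 of the 16 adjusted ones. Since Cgas was chosen for this difference, that count describes its steadiness under processing and is no independent support. Samhd1 probe 1 ran from 0.63 to 0.94 and passed in 5 of the 16. Samhd1 probe 2 passed in 4, and with 1 array left out it passed only without WT replicate 2. Its log2 fold change was 0.51 to 0.65 over the fits without 1 array, but 0.21 without background correction and 0.25 in the authors' processed values. Irf7 passed in 1 of the 16, and its 0.74 became 0.41 without background correction and 0.44 in the authors' processed values. Dhx58 probe 3 passed in 1, and no other probe passed in any. At an unadjusted p, the methods' t-test also passed Dhx58 probe 2, with Irf7, Dhx58 probe 3, Cgas probe 1 and both tested Samhd1 probes. With median scaling in place of quantile normalization, all probes shifted to a median of -0.14, and 8 of the 16 probes were above 0. Mavs, Tbk1, Irf3 probe 3 and both Trex1 probes changed sign there, at -0.01, -0.16, -0.16, -0.02 and -0.02, while Cgas probe 1 stood at 0.92.

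**Figure D4:**
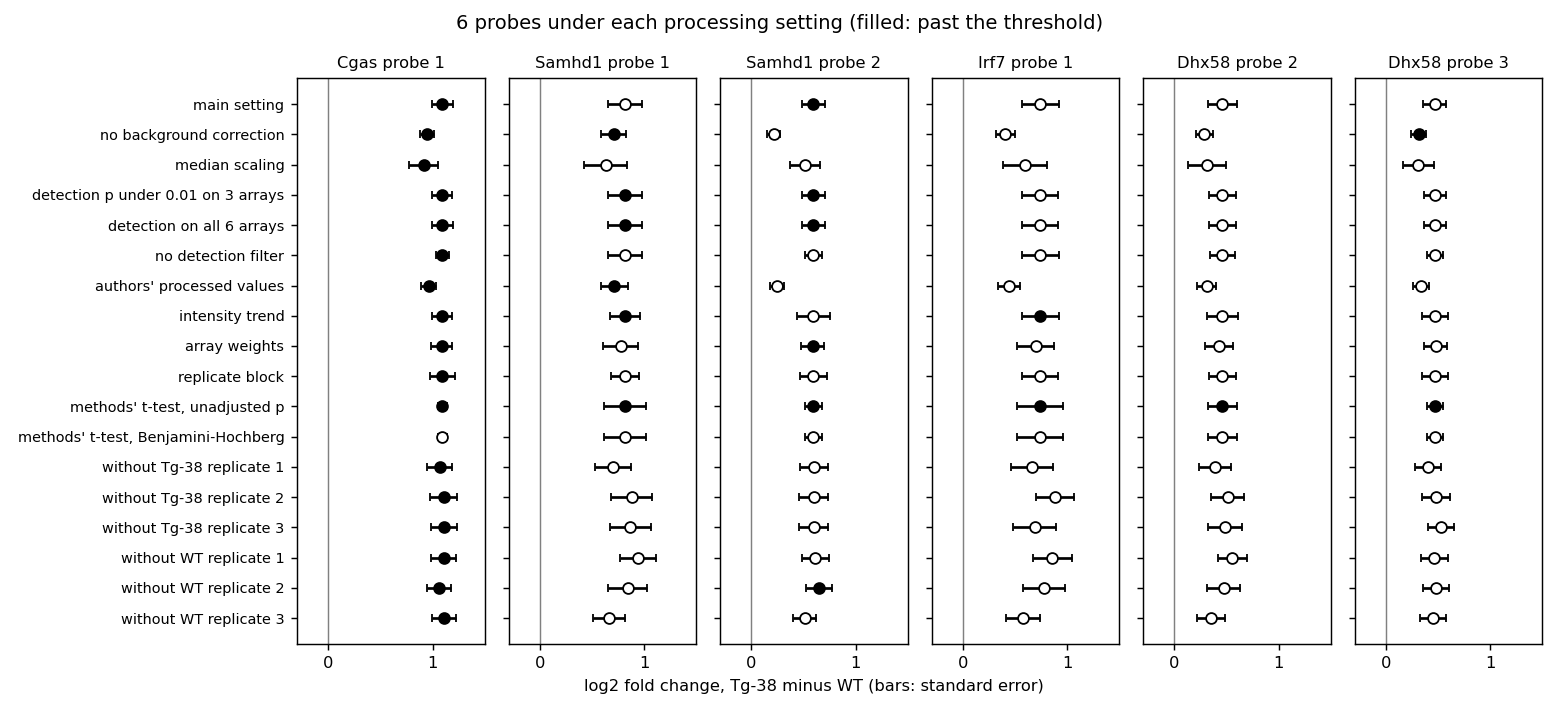
Log2 fold change, Tg-38 minus WT (x axis), of 6 probes under the main setting and each of the 17 alternatives (y axis), with bars for the standard error and filled points past the threshold. The row of the methods' t-test at an unadjusted p is filled by that p, and Cgas probe 1 is filled in 15 of the 16 adjusted alternatives, Samhd1 probe 1 in 5.

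Promoters were searched for interferon-type motifs because several of these genes are interferon-inducible. RefSeq windows of 300 bases, 250 before and 50 after the start, were matched for 8 of the 10 genes, giving 9 windows. Dhx58 and Zbp1 were not matched. The ISRE-type motif (GAAA, any 2 bases, then GAAA, on both strands) was in 1 of the 9 windows, that of Ifih1, and in 3.44% of 32851 windows. The GAS motif TTCNNNGAA, which reads the same on both strands, was in 1 of the 9, that of Samhd1, and in 8.30% of all windows. The 2 motifs did not overlap in these windows. The Cgas window is shown as that of the gene that differed most, and it held neither motif. The other 2 are shown for their matches, in capitals, which began 235 bases before the start in Samhd1 and at base 33 after it in Ifih1. The windows are from build GRCm38.p6, all on the minus strand: Cgas at chr9:78443188-78443487, Samhd1 at chr2:157135047-157135346 and Ifih1 at chr2:62646206-62646505. A match describes letters and is not a measured binding site.
Cgas: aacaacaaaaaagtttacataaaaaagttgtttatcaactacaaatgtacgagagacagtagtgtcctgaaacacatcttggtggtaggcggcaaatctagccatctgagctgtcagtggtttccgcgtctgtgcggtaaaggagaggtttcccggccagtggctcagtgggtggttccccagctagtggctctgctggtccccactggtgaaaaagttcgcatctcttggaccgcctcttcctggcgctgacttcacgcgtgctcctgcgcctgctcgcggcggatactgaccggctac
Samhd1: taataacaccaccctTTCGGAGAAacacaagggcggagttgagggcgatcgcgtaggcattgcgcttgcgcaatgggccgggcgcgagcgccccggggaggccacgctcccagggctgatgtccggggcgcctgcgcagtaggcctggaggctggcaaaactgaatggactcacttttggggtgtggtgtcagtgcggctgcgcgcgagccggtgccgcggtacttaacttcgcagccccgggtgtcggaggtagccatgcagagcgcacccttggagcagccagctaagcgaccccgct
Ifih1: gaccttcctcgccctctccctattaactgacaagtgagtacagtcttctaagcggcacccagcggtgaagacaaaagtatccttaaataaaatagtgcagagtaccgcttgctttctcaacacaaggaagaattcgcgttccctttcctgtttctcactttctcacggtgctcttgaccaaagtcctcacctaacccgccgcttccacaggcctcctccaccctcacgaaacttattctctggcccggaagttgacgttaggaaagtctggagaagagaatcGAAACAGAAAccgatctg

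The other genes of the pathway were taken from a list of 69 sensors, adaptors, kinases, factors, nucleases, RNA polymerase III subunits, ubiquitin enzymes and products. Of these, 61 had a probe, and 51 genes with 91 probes were tested. Ccl4, a chemokine made by activated lymphocytes and macrophages, was the only one to pass, against 0.801% of all probes that were higher. Its brighter probe read 8.57, 8.71 and 8.75 in Tg-38, against 7.41, 7.76 and 7.11 in WT, a log2 fold change of 1.25 with a standard error of 0.16 (limma, adjusted p = 0.0175). Its dimmer probe was at 0.81 (limma, adjusted p = 0.0505). No probe was lower past the threshold, against 0.300% of all probes. At an unadjusted p under 0.05, 17 of the 91 probes were higher and 2 lower, against 8.55% and 8.48% of all tested probes. The median over the 91 was 0.06, with 56 above 0. With median scaling the median was -0.08, with 34 above 0, against -0.14 over all probes.

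Past the unadjusted threshold but not the adjusted one lay several genes around the sensors, each given by its most different probe. The ubiquitin ligase Rnf135, which acts on the RNA helicase Rigi, had a log2 fold change of 0.62 (limma, adjusted p = 0.0544), with its other tested probe at 0.33. The kinase Ikbke, a relative of Tbk1, stood at 0.51 (adjusted p = 0.0681 by limma), and the transcription factor Irf1 at 0.50 (adjusted p = 0.0883 by limma). The other 4 tested Irf1 probes ran from -0.14 to 0.45. Casp1, the protease that matures interleukin 1, was also at 0.50 (adjusted p = 0.09 by limma). Sting1, the adaptor that the Cgas product activates, was added for its role after its values were seen. It read 6.999, 6.89 and 7.05 in Tg-38, against 6.86, 6.33 and 6.40 in WT. Its groups did not overlap, and its log2 fold change was 0.45 (limma, adjusted p = 0.188). On the other side, the RNA polymerase III subunits Polr3a and Polr3k were at -0.44 and -0.30 (limma, adjusted p = 0.157 and 0.27). That Polr3a probe was near the detection limit. Another dim Polr3a probe was at -0.40, and the brightest was at -0.06. The other tested Polr3k probe was at -0.15. Ifnb1, Ifna4, Il6, Ifi204, Nlrp3, Nlrc3 and Polr3f were detected on no array, so the listed interferons, Ifnb1 and Ifna4, were not well above background in either genotype. Other interferon genes were not examined. Cxcl10 and Mlkl were each detected on 2 Tg-38 arrays only, and Aim2 on 2 WT arrays only.

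A list of 46 interferon response genes was read in the same way. Of these, 43 had a probe, and 36 genes with 62 probes were tested. Ifit3, an antiviral RNA-binding protein, passed at a log2 fold change of 1.23, with 9.82, 9.53 and 9.73 in Tg-38, against 8.65, 8.56 and 8.16 in WT (limma, adjusted p = 0.0132). Oas2, which makes a signal that activates RNase L, passed at 0.99, with 8.66, 8.61 and 8.28 in Tg-38, against 7.67, 7.64 and 7.26 in WT (limma, adjusted p = 0.0315). In both the groups were apart. A second Ifit3 probe stood at 1.05 (limma, adjusted p = 0.0707). None was lower past the threshold in the main setting, while 1 was in several of the alternatives. Over all tested probes, 0.801% were higher and 0.300% lower past it. At an unadjusted p under 0.05, 18 of the 62 were higher and 3 lower, against 8.55% and 8.48% of all tested probes. The median over the 62 was 0.17, and 0.01 with median scaling, where all probes had -0.14.

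Among those that did not pass, Ifitm3 stood at 0.53 and Usp18 at 0.46 for its most different probe (limma, adjusted p = 0.0974 and 0.0991). The guanylate-binding GTPases Gbp2 and Gbp3 were both at 0.47 for their most different probes (limma, adjusted p = 0.111 and 0.156), with another tested probe of each at 0.07 and 0.23. The receptor chains Ifngr1 and Ifnar2 stood at -0.54 and -0.62, and Pml at -0.41, for their most different probes (limma, adjusted p = 0.0617, 0.17 and 0.26). Those of Ifnar2 and Pml were near the detection limit. The other 2 tested Ifnar2 probes were at -0.04 and -0.12, and the other 3 of Pml at 0.07, 0.08 and 0.25. Ifit1, Oas1a, Oas3, Xaf1 and Ifnar1 were detected on no array.

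Some cell type marker lists also differed between the genotypes, some higher and some lower in Tg-38. None of the lists was checked for specificity in the thymus, and the dendritic cell list shares Bst2 with the interferon response list. Normalized signals, on the linear scale and for the brightest probe of each gene, were summed over each list. For the macrophage list the sums were 3433 to 3850 in Tg-38, against 2520 to 2716 in WT, with 8 of 9 tested markers above 0, none past the threshold, and Fcgr1 detected on no array. For the NK and cytotoxic list the sums were 3214 to 3905 in Tg-38, against 2111 to 2548 in WT. All 5 tested markers were above 0, and Klrd1 and Nkg7 passed at log2 fold changes of 2.16 and 1.16 (limma, adjusted p = 0.00146 and 0.0287). Over all tested probes 48.7% were above 0. With median scaling 3 of these 5 were above 0, while the counts of macrophage, dendritic cell and thymic epithelial probes above 0 did not change. Eomes, Gzmb, Klrk1 and Ncr1 were detected on no array. Dendritic cell sums overlapped, at 3360 to 4141 in Tg-38, against 3051 to 3966 in WT, with 6 of 8 tested markers above 0. Cd86, a costimulatory ligand, passed at 1.13 for its most different probe (limma, adjusted p = 0.0132), and Itgax, Flt3, Zbtb46, Xcr1 and Ccr9 were detected on no array.

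B cell sums were 484 to 579 in Tg-38, against 652 to 815 in WT, where both tested markers were below 0, Cd79b passed at -0.65 for 1 of its probes (limma, adjusted p = 0.0408), and Ms4a1 and Pax5 were detected on no array. Erythroid sums were 8150 to 19963 in Tg-38, against 20803 to 50371 in WT, and all 4 tested markers were below 0. For the double-positive thymocyte list, not specific to those cells, the sums were 49328 to 53641 in Tg-38, against 56418 to 57967 in WT. Among its tested markers 2 of 9 were above 0. Thymic epithelial sums overlapped, at 2721 to 3677 in Tg-38, against 2476 to 2769 in WT. All 6 tested markers were above 0 at a median of 0.29, none past the threshold, and Epcam and Foxn1 were on no array. That list also holds Cd74 and Ctsl, and it was not checked to be specific to epithelium. The part that cell composition played in the Cgas, Samhd1 and Irf7 differences was not tested.

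**Figure D5:**
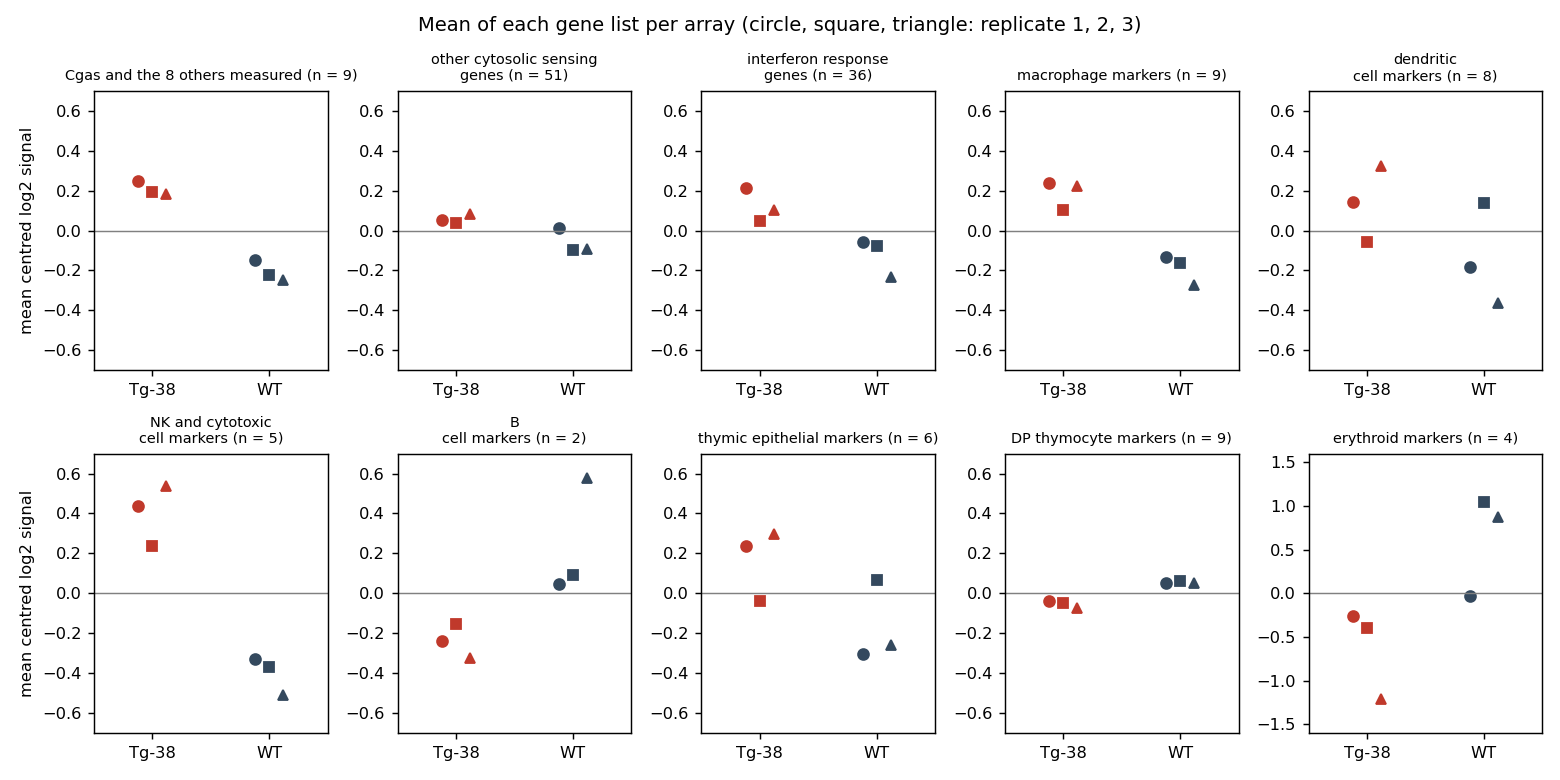
Mean over each gene list of the log2 signal centered on each gene's own mean (y axis), per array, in Tg-38 (left, red) and WT (right, dark blue), with circle, square and triangle for replicates 1, 2 and 3. The erythroid panel has a wider y axis than the others. The panel of Cgas and the 8 other measured genes, chosen from this contrast, spans 0.18 to 0.25 in Tg-38 and -0.25 to -0.15 in WT.

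The genes whose pattern over the 6 arrays came closest to Cgas probe 1 were found among 13342 probes of single genes detected on all 6 arrays, by the root mean square difference of log2 signal after centering each probe on its own mean. Haao, an enzyme of tryptophan breakdown, was nearest at 0.059 log2 units, with a log2 fold change of 1.01. Golm1, a Golgi membrane protein, followed at 0.10 and Actn2, an actin-crosslinking protein of muscle, at 0.10. The interleukin 7 receptor chain Il7r was at 0.11 and Tent5a, a poly(A) polymerase, at 0.12. The SD of Cgas probe 1 itself over the 6 arrays was 0.60 log2 units. These genes were selected for likeness, which a shared group difference alone can give.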

How the data were processed

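Whole thymus RNA from 3 Tg-38 and 3 WT mice was hybridized to Illumina MouseWG-6 v2 arrays. The authors deposited non-normalized intensity values and detection p-values per probe, made with GenomeStudio, and a second table of processed intensity values whose normalization is not given in the sources used here. The intensities were processed with the neqc function of limma 3.58.1 (R 4.3.3), which removes background estimated from the detection p-values, adds 16 and quantile normalizes, then compared on the log2 scale, Tg-38 minus WT, with lmFit and eBayes and no block. A probe entered the test when 3 or more arrays of the 6 gave it a detection p below 0.05, with Benjamini-Hochberg adjustment over all of them and a threshold of 0.05. Gene names are those of the platform annotation, updated through RefSeq names. Genes and lists were chosen with earlier results of these data known. All probes of the 10 genes are named. From the other lists, genes past the threshold and then the smallest unadjusted p-values per direction (up to 4 per list) are named, with markers past the threshold or on no array. The 17 alternatives changed the background correction, scaling, filter, source of values, variance model, block, test or arrays. The script was tested on simulated data. No 2 arrays held identical values.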

Additional observations from a re-analysis of the deposited data

How the results depend on the processing

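Array number and, for dim probes such as Cgas probe 2, signal near background limit these results. Of the 16 probes of Cgas and its companions, 2 passed in the main setting. The count was 3 without background correction, at a detection p under 0.01, with detection on all 6 arrays and with an intensity trend. It was 1 with median scaling and 1 without a detection filter. The methods' t-test gave 6 at an unadjusted p and 0 after Benjamini-Hochberg adjustment, and fits with an array left out gave 1 to 2. Of the other cytosolic sensing probes 1 passed, against 6 without background correction, 3 at a detection p under 0.01, 2 with detection on all 6 arrays, 0 without a filter, 6 in the authors' processed values, 7 with an intensity trend, 3 with array weights, 16 by the methods' t-test unadjusted and 0 adjusted, and 0 to 2 with an array left out. Of the interferon response probes 2 passed, against 5 without background correction and 0 without a filter. There were 6 in the authors' processed values, 6 with an intensity trend, 15 by the methods' t-test unadjusted and 0 adjusted. With an array left out there were 0 to 3. Among these, 1 was lower in Tg-38 without background correction, in the authors' values, with an intensity trend and by the unadjusted t-test. With median scaling 1 was higher and 1 lower. At a detection p under 0.01, and with detection on all 6 arrays, 2 were higher and 1 lower. In the main limma fit the counts at an unadjusted p under 0.05 were 6 higher and 0 lower, 17 higher and 2 lower, and 18 higher and 3 lower for the 3 lists. The cause of these shifts was not tested.

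The labels do not say whether same-numbered mice are related, so the numbers were not taken to pair mice. Deviations from the group means correlated at 0.03, -0.12 and -0.10 for same-numbered arrays. With 3 arrays per group, these values cannot exclude pairing. With the replicate number as a block, 1 probe of Cgas and its companions, 0 other cytosolic sensing probes and 2 interferon response probes passed, and 29 of all probes against 202 without the block. Over all probes 147 were higher and 55 lower, against 79 higher and 141 lower with median scaling. All probes that passed numbered 397 without background correction, 265 at a detection p under 0.01, 48 without a filter, 445 in the authors' values, 480 with an intensity trend, 299 with array weights, 2692 by the t-test unadjusted and 1 adjusted. With an array left out they were 15 to 318, the 318 without WT replicate 2. Cgas probe 1 and Samhd1 probe 2, which passed in the main setting, kept their direction under all 17 alternatives. For probes outside Cgas and its companions, direction was not followed probe by probe.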
